A study of Homo sapiens with 6 samples.

Results

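The DEAD and DEAH box RNA helicases were followed in 92.1 cells, an established cell line. It derives from uveal melanoma, which arises from melanocytes of the eye. Their genes were taken by symbol, as every listed gene whose name is DDX or DHX followed by a digit, with 1 further symbol of that form not reported here. That gave 49 of the 12010 named genes, 34 DDX and 15 DHX genes, with 135 listed transcripts between them. The LBH589 group held 3 samples given 0.1 µM LBH589 for 24 h, and the DMSO group held 3 samples given the solvent alone over the same 24 h. No other treatment or genotype was named for either group. LBH589 (panobinostat) inhibits histone deacetylases, the enzymes that take acetyl groups off histones and other proteins. The labels do not say whether the replicates were separate cultures, so p-values measure only how far these samples vary, which can be technical.

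DEAD and DEAH box proteins share a helicase core that binds RNA and ATP, and are named after an amino acid motif in that core. DEAD box proteins mostly pry open short duplexes or clamp RNA, whereas DEAH box proteins move along a strand and pull on it, often under the control of a partner protein with a G-patch, a short glycine-rich stretch. Between them they remodel RNA in the spliceosome, in the assembling ribosome, at the nuclear pore and on mRNA in the cytoplasm.

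The values were FPKM, which divides a transcript's fragments by its length and by the library's fragments, and were added up gene by gene, so that levels of different genes could be set side by side per length. Summed FPKM was 361610 ± 6082 in LBH589 libraries and 409742 ± 12731 in DMSO libraries (SD, n = 3 each), with mitochondrial genes at 36.2 ± 1.09% in LBH589 libraries and 41.8 ± 5.26% in DMSO libraries. The files hold no counts, so absolute depth is unknown and no counting interval could be given. All 6 markers of melanocytic cells were listed. Their summed level ranged over 215.8 to 263 FPKM in LBH589 libraries and 694 to 888 FPKM in DMSO libraries. PMEL overlapped between groups, with 176, 225 and 199 FPKM in LBH589 samples against 364, 273 and 185 FPKM in DMSO samples. MLANA, TYR, DCT, MITF and SOX10 were each lower in every LBH589 sample. For SOX10 the range was 0.502 to 0.963 FPKM in LBH589 samples and 55.2 to 90.0 FPKM in DMSO samples. Of 10 markers of fibroblasts, blood, endothelial and epithelial cells, 2 were listed (COL1A1 and EPCAM), and they summed to 3.52 to 4.82 FPKM in LBH589 libraries and 0.797 to 2.41 FPKM in DMSO libraries. COL1A2, DCN, PTPRC, CD3E, LYZ, PECAM1, VWF and KRT5 had no listed transcript. The part of these shifts in the results was not tested.

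More helicase genes were lower than higher after LBH589. The 47 helicase genes that averaged 0.5 FPKM or more could be tested. Of these, 16 fell (34.0%) and 3 rose (6.38%) at an adjusted p below 0.05 in limma with Benjamini-Hochberg adjustment over all 11520 genes tested, and 28 did not pass. Over all genes tested 48.8% were called, with 27.2% rising and 21.6% falling. The 3 rises were DHX16, DDX27 and DHX57. On log2(FPKM + 1), which understates changes of low genes, the largest falls belonged to DDX6, DDX60L, DHX15, DHX33, DDX54 and DHX9. As a percent of the DMSO mean the lowest called genes were DDX60L (27.6%), DDX6 (32.6%) and DDX51 (34.0%). The median log2 fold change, LBH589 minus DMSO on log2(FPKM + 1), was -0.21 over the helicase genes and 0.08 over all genes tested. Of the DDX genes tested, 1 rose and 13 fell of 33, and of the DHX genes 2 rose and 3 fell of 14.

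The count of rises depended on scaling and on single libraries. With all libraries scaled to the same sum of FPKM, 8 helicase genes rose and 14 fell, with a median of -0.05 against 0.23 over all genes. Under that scaling rises made up 36.4% of the helicase calls and 65.2% of all calls, against 15.8% and 55.8% without it. Without DMSO replicate 1, 7 helicase genes rose. Of the 19 calls, 16 held whichever library was left out (14 falls and 2 rises), and the exceptions were DHX57, DDX39A and DDX41. The values of the LBH589 and DMSO samples did not overlap in 30 of the 47 genes (63.8%), against 59.5% of all genes tested.

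**Figure D1:**
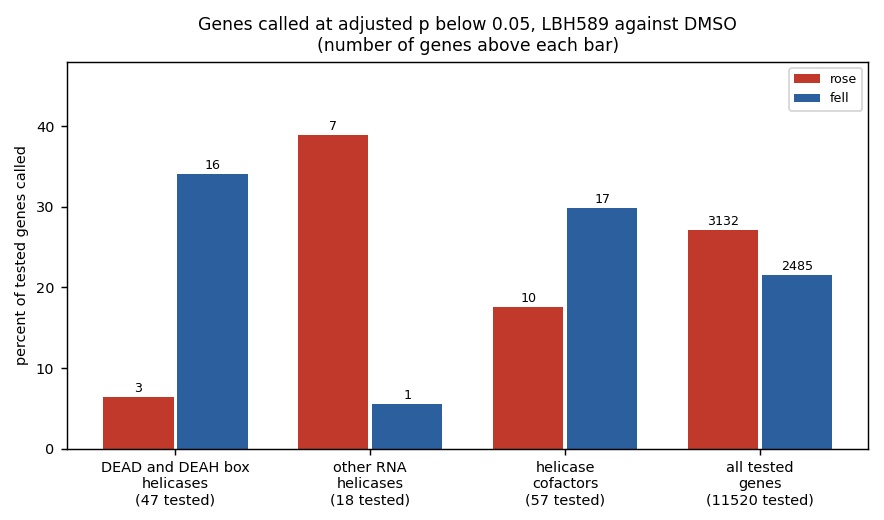
Percent of tested genes called as risen or fallen at adjusted p below 0.05 (y axis) among the helicase genes, the other RNA helicases, the helicase cofactors and all genes, with the number of genes above each bar. Among the helicase genes 6.38% rose and 34.0% fell, and among all genes 27.2% rose and 21.6% fell.

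The summed level of the 49 genes was lower after LBH589 as well. They added up to 1010, 1074 and 1070 FPKM in LBH589 replicates 1 to 3 and to 1346, 1201 and 1231 FPKM in DMSO replicates 1 to 3. Every LBH589 sample lay below every DMSO sample, and the LBH589 mean was 83.5% of the DMSO mean (94.5% after scaling to equal sums). As a share of all FPKM the groups overlapped, at 0.291 ± 0.0140% in LBH589 and 0.308 ± 0.0280% in DMSO libraries. Without mitochondrial genes the share was 0.456 ± 0.0163% in LBH589 and 0.529 ± 0.00635% in DMSO libraries, with no overlap. In bulk RNA fewer cells of a type and less RNA per cell cannot be told apart.

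**Figure D2:**
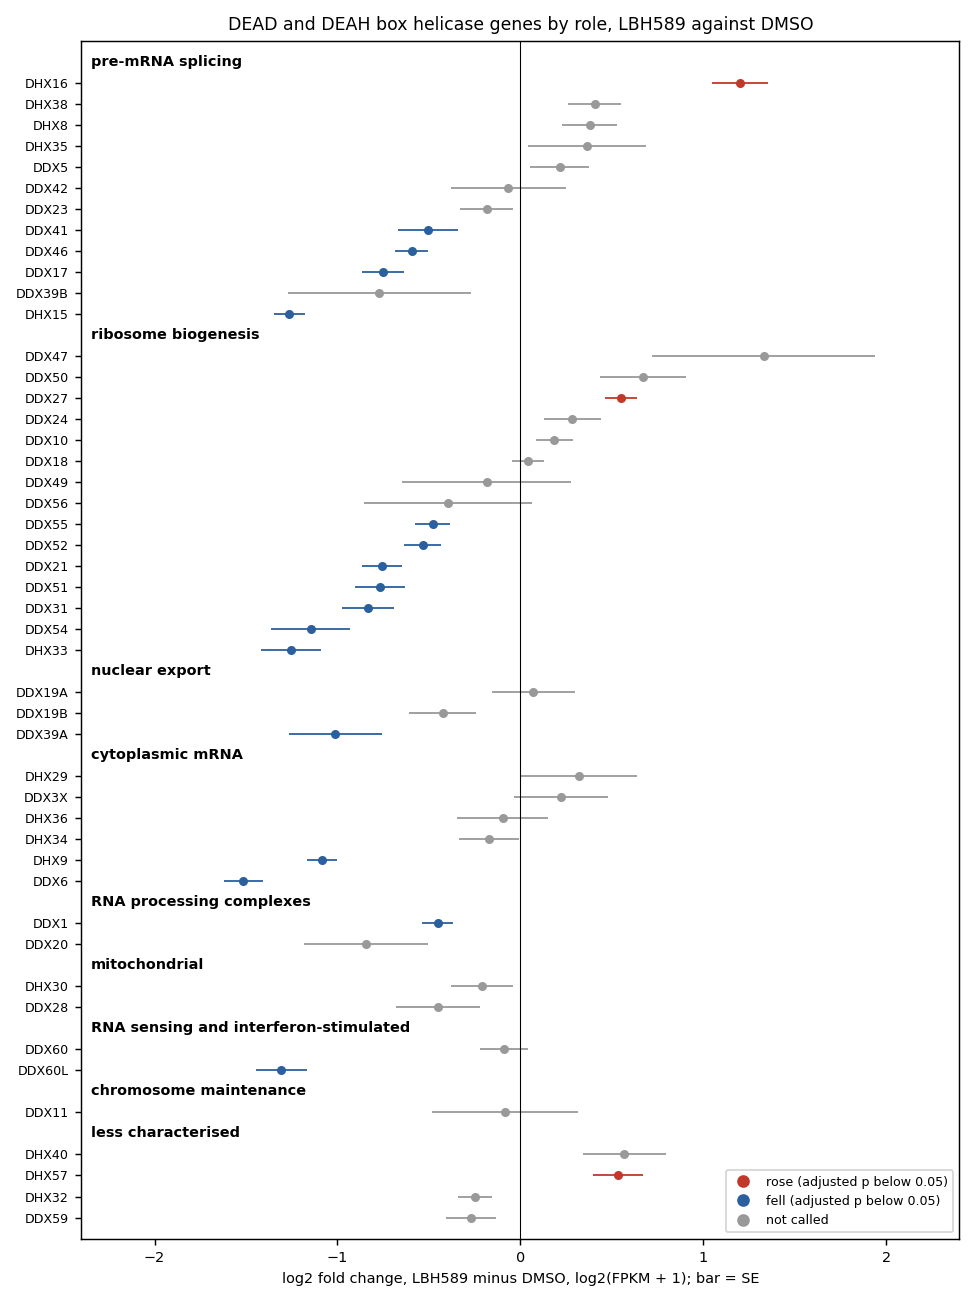
Log2 fold change of each tested helicase gene, LBH589 minus DMSO on log2(FPKM + 1), with SE bars, grouped by role and coloured by call. DHX16 at 1.20 is the largest called rise and DDX6 at -1.51 the largest fall.

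Among 12 helicases of pre-mRNA splicing, 1 rose (8.33%) and 4 fell (33.3%), against 27.2% rising and 21.6% falling over all genes tested. The spliceosome is driven through its cycle by a set of DEAH box proteins that each act at a fixed step. DHX16, the human counterpart of yeast Prp2, which activates the spliceosome for its first reaction, stood at 36.9, 41.5 and 44.5 FPKM in LBH589 samples and at 19.7, 18.4 and 13.97 FPKM in DMSO samples. All LBH589 samples were above all DMSO samples, the means were 41.0 ± 3.82 FPKM in LBH589 and 17.4 ± 3.01 FPKM in DMSO samples (SD, n = 3 each), a ratio of 2.36, and the log2 fold change was 1.20 (SE 0.15, adjusted p = 0.00125). DHX15, the counterpart of Prp43, which takes the spliceosome apart after the reaction, went the other way. It had 31.7, 30.1 and 28.4 FPKM in LBH589 samples against 73.1, 74.3 and 73.1 FPKM in DMSO samples. The spread within each group was small beside the gap, and DHX15 fell by 1.26 on the log2 scale (SE 0.08, adjusted p = 1.01e-04), to 40.9% of the DMSO mean.

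DHX38 and DHX8, the counterparts of Prp16 and Prp22, which act at the second reaction and at release of the mRNA, were not called. DHX38 had 15.1, 20.1 and 18.4 FPKM in LBH589 samples against 14.8, 11.9 and 12.8 FPKM in DMSO samples (log2 fold change 0.41, adjusted p = 0.0579). DHX8 had 16.2, 15.8 and 15.7 FPKM in LBH589 samples against 14.1, 9.59 and 12.7 FPKM in DMSO samples (log2 fold change 0.38, adjusted p = 0.0837). Neither gene's groups overlapped, and both were called as risen with equal sums (adjusted p = 0.0247 for DHX38 and 0.0353 for DHX8). Without DMSO replicate 1, DHX16, DHX38, DHX8 and DDX5 were all called as risen. DDX46, the counterpart of Prp5, which helps place U2 snRNP on the branch site, had 37.8, 34.4 and 38.5 FPKM in LBH589 samples against 54.6, 54.4 and 59.8 FPKM in DMSO samples. Its groups did not overlap, and it fell by 0.60 on the log2 scale (SE 0.09, adjusted p = 0.00264).

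DDX5 (p68) and DDX17 (p72) are close relatives that act in splicing choice, microRNA processing and transcription. DDX17 had 57.4, 62.6 and 55.0 FPKM in LBH589 samples against 112, 92.0 and 93.6 FPKM in DMSO samples. The lowest DMSO sample was well above the highest LBH589 sample, and DDX17 fell by 0.75 on the log2 scale (SE 0.11, adjusted p = 0.00241). DDX5, the most abundant helicase gene per length, had 178, 189 and 188 FPKM in LBH589 samples against 198, 131 and 155 FPKM in DMSO samples. DMSO replicate 1 was above all LBH589 samples, the groups overlapped, and the log2 fold change was 0.22 (SE 0.16, adjusted p = 0.316). Without DMSO replicate 1 it was 0.37 (adjusted p = 0.0349).

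DDX41, which binds the catalytic spliceosome and is mutated in some myeloid cancers, had 6.13, 6.03 and 4.05 FPKM in LBH589 samples against 7.75, 8.33 and 7.87 FPKM in DMSO samples. The groups did not overlap, with LBH589 replicate 3 the lowest, and it fell by 0.51 on the log2 scale (SE 0.17, adjusted p = 0.0455). That call was lost whichever library was left out (adjusted p 0.0579 to 0.117), with equal sums (0.117) and for its most abundant transcript (0.111). DDX39B (UAP56), needed both for early spliceosome assembly and for mRNA export, had 21.4, 27.1 and 25.8 FPKM in LBH589 samples against 70.5, 60.4 and 18.0 FPKM in DMSO samples. DMSO replicate 3 lay below every LBH589 sample while the other DMSO samples lay above 60 FPKM. DDX39B was therefore not called (log2 fold change -0.77, SE 0.50, adjusted p = 0.251), and without DMSO replicate 3 the log2 fold change was -1.37 (adjusted p = 0.00194). DDX23, DDX42 and DHX35 were not called (log2 fold changes -0.18, -0.07 and 0.36). The median over the 12 splicing genes was -0.12, and 0.04 with equal sums, against 0.08 and 0.23 over all genes.

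**Figure D3:**
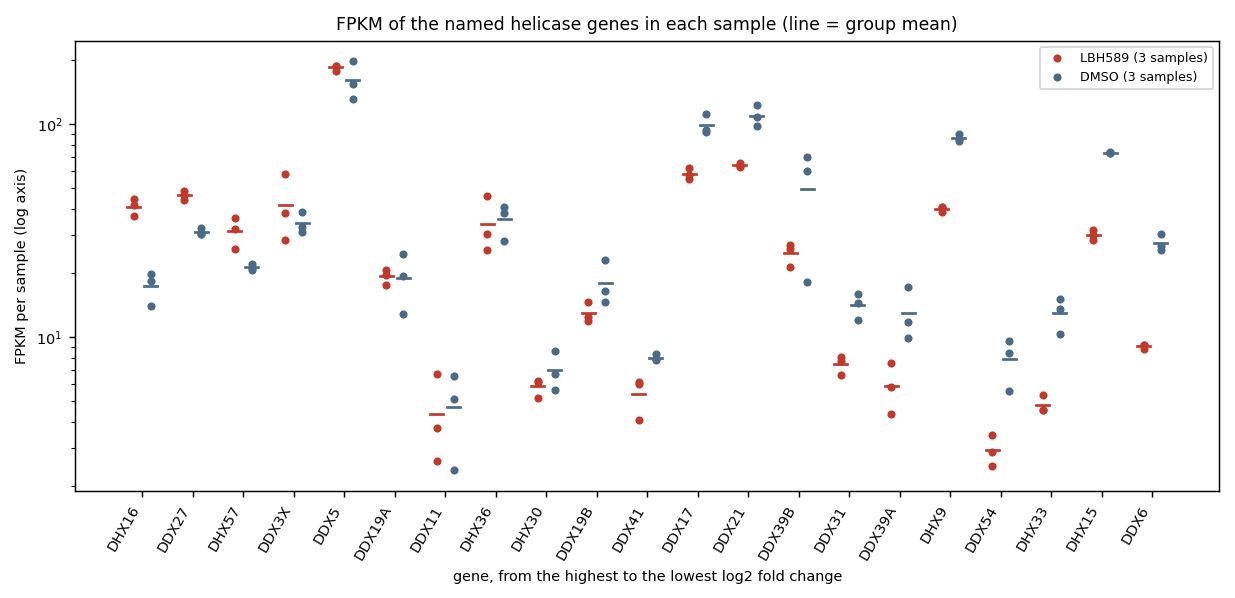
FPKM per sample on a log axis for the named helicase genes, ordered by log2 fold change, with LBH589 points left of DMSO points and a line at each group mean. DHX16 separates upward (36.9 to 44.5 FPKM in LBH589, 13.97 to 19.7 in DMSO) and DDX6 downward (8.73 to 9.20 in LBH589, 25.7 to 30.6 in DMSO), while DDX39B spans 18.0 to 70.5 FPKM within DMSO.

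The promoters of 4 called genes are shown because they moved in opposite directions by clear margins, DHX16 and DDX27 upward and DHX15 and DHX9 downward. They are the bases upstream of the RefSeq start on GRCh38.p14, written along the gene's strand, in lower case with motif matches on either strand in capitals. The motifs searched were CACGTG (E-box), GGGCGG (GC box), CCGGAAG (bound by ETS factors) and CCAAT, and no matches overlapped in these 4. DHX16 is at chr6:30673038-30673256 on the minus strand, DDX27 at chr20:49219166-49219415 on the plus strand, DHX15 at chr4:24584555-24584804 on the minus strand and DHX9 at chr1:182839097-182839346 on the plus strand. For DHX16 the window was ended at 219 bases, since its most abundant transcript started 31 bases upstream of the RefSeq start.
DHX16: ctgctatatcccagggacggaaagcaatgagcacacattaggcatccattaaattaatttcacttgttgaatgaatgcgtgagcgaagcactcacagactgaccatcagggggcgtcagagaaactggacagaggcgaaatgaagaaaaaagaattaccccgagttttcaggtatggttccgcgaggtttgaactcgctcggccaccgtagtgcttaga
DDX27: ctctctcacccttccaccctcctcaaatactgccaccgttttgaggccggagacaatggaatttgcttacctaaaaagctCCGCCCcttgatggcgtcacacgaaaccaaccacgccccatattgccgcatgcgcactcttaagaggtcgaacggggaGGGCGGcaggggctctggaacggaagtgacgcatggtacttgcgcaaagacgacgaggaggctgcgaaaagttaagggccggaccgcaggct
DHX15: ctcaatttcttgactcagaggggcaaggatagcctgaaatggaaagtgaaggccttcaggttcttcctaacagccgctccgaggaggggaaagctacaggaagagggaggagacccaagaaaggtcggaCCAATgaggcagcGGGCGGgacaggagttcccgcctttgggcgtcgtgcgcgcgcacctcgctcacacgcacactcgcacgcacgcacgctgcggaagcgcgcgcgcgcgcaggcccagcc
DHX9: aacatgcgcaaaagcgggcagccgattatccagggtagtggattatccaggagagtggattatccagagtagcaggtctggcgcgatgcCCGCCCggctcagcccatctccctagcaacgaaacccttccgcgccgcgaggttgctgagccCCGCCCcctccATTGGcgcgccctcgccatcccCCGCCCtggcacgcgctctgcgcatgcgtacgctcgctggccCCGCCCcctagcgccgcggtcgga

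No match stood in the 219 bases of DHX16, and its CCGGAAG match lay in the 31 bases left out. DDX27 had 2 GC boxes, DHX15 a CCAAT box followed by a GC box, and DHX9 4 GC boxes and a CCAAT box. Promoters were found for 45 of the 49 genes, all but DDX18, DDX49, DDX52 and DHX33. In the 250 bases upstream, CCGGAAG matched in 33.3% of the 45 helicase promoters, in 17.2% of those of all genes tested and in 8.82% of all promoters. CACGTG matched in 15.6% of the helicase promoters, 9.12% of those of genes tested and 6.49% of all. GGGCGG matched in 55.6% of the helicase promoters, 69.0% of those of genes tested and 42.3% of all, and CCAAT in 42.2, 35.8 and 33.0%. Split by call, CCGGAAG stood in 4 of the 14 promoters of genes that fell, in 2 of the 3 of genes that rose and in 9 of the 28 others. These matches describe the letters only.

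Ribosome biogenesis was the largest role group. Of 16 helicases that remodel ribosomal RNA in the nucleolus, 15 were tested. Of these, 7 fell (46.7%) and 1 rose (6.67%), with a median log2 fold change of -0.40. Calls in either direction came to 53.3%, against 48.8% over all genes tested, where 21.6% fell and 27.2% rose. With equal sums 6 fell and 3 rose of 16, against 2001 falling and 3749 rising of 11535 over all genes. DDX21, which acts in transcription and processing of ribosomal RNA, was the most abundant, with 65.8, 63.8 and 63.0 FPKM in LBH589 samples against 98.2, 108 and 123 FPKM in DMSO samples. All LBH589 samples were below all DMSO samples, and DDX21 fell by 0.76 on the log2 scale (SE 0.11, adjusted p = 0.00192). DHX33, a nucleolar protein linked to transcription of ribosomal DNA, had 5.30, 4.54 and 4.52 FPKM in LBH589 samples against 15, 10.3 and 13.5 FPKM in DMSO samples. Again the groups were apart, and DHX33 fell by 1.25 on the log2 scale (SE 0.16, adjusted p = 0.00129), to 37.1% of the DMSO mean.

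DDX54, a nucleolar protein also known as a partner of nuclear hormone receptors, had 2.88, 3.47 and 2.46 FPKM in LBH589 samples against 9.58, 8.36 and 5.57 FPKM in DMSO samples. The groups did not overlap, and it fell by 1.15 on the log2 scale (SE 0.21, adjusted p = 0.0059), while its most abundant transcript alone was not called (adjusted p = 0.0631). DDX31, another nucleolar helicase, had 7.68, 8.08 and 6.61 FPKM in LBH589 samples against 15.9, 14.4 and 12.0 FPKM in DMSO samples. Its groups were apart too, and it fell by 0.83 on the log2 scale (SE 0.14, adjusted p = 0.00372). The other falls were DDX51 (log2 fold change -0.77), which acts at the end of 28S rRNA, DDX52 (-0.53), related to yeast Rok1, and DDX55 (-0.48), related to yeast Spb4. DDX51 averaged 0.560 ± 0.185 FPKM in LBH589 samples and 1.65 ± 0.137 FPKM in DMSO samples. DDX55 was not called with equal sums (adjusted p = 0.0551), nor was its most abundant transcript.

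DDX27, which acts in the processing of the 3′ end of the ribosomal RNA precursor, was the exception among the called nucleolar genes. It had 46.5, 43.9 and 48.5 FPKM in LBH589 samples against 32.6, 30.6 and 30.6 FPKM in DMSO samples. Every LBH589 sample was above every DMSO sample, and the log2 fold change was 0.55 (SE 0.09, adjusted p = 0.00278). DDX50, the close relative of DDX21, had 24.2, 18.7 and 26.3 FPKM in LBH589 samples against 18.2, 14.9 and 10.0 FPKM in DMSO samples. The groups did not overlap, but it was not called (log2 fold change 0.67, SE 0.24, adjusted p = 0.0577), and it was called as risen with equal sums (adjusted p = 0.0297) and without DMSO replicate 1 (0.0312). DDX47, related to yeast Rrp3, had 10.2, 18.1 and 14.4 FPKM in LBH589 samples against 4.98, 1.501 and 12.8 FPKM in DMSO samples. DMSO replicate 3 was above the lowest LBH589 sample, the adjusted p was 0.121, and without that library it was 0.0190. DDX10 (log2 fold change 0.18, adjusted p = 0.182) was called as risen with equal sums (0.0268). DDX18 differed little, at 27.6, 27.6 and 27.7 FPKM in LBH589 samples and 26.2, 25.9 and 28.6 FPKM in DMSO samples. DDX24, DDX49 and DDX56 were not called, and DHX37, under the minimum level, averaged 0.627 ± 0.338 FPKM in LBH589 samples and 0.364 ± 0.0935 FPKM in DMSO samples.

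Of 4 genes assigned to mRNA export, 3 were tested and 1 fell (33.3%, against 21.6% over all genes tested). DDX39A, the close relative of DDX39B, had 5.81, 7.502 and 4.33 FPKM in LBH589 samples against 17.2, 11.7 and 9.87 FPKM in DMSO samples. The groups did not overlap, and it fell by 1.01 on the log2 scale (SE 0.26, adjusted p = 0.0187), a call lost without LBH589 replicate 1 (adjusted p = 0.0524) or LBH589 replicate 3 (0.0575). DDX19A and DDX19B, which release mRNA on the outer face of the nuclear pore, are near-identical, so the split of fragments between them is uncertain. DDX19A had 20.7, 19.5 and 17.6 FPKM in LBH589 samples against 24.5, 19.2 and 12.9 FPKM in DMSO samples, with the groups overlapping (log2 fold change 0.07, SE 0.23, adjusted p = 0.823). DDX19B had 11.9, 14.6 and 12.3 FPKM in LBH589 samples against 22.9, 16.4 and 14.6 FPKM in DMSO samples, and was not called (log2 fold change -0.43, SE 0.18, adjusted p = 0.105). DDX25, a helicase of male germ cells, was listed at 1.68 FPKM in LBH589 replicate 1 and at 0 in all other libraries.

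DHX9 was counted among 6 helicases grouped under translation, decay and storage of cytoplasmic mRNA, although it also acts in the nucleus. Of the 6, 2 fell (33.3%) and 0 rose, against 21.6% falling and 27.2% rising over all genes tested. Their median log2 fold change was -0.14 (0.01 with equal sums), against 0.08 (0.23 with equal sums) over all genes. DDX6 represses translation and promotes decapping in processing bodies. It had 8.73, 9.20 and 9.14 FPKM in LBH589 samples against 25.7, 30.6 and 26.7 FPKM in DMSO samples. The groups were far apart, the means were 9.02 ± 0.256 FPKM in LBH589 and 27.7 ± 2.58 FPKM in DMSO samples, and DDX6 fell by 1.51 on the log2 scale (SE 0.10, adjusted p = 1.17e-04), to 32.6% of the DMSO mean. DHX9 (RNA helicase A) unwinds double-stranded RNA and RNA-DNA hybrids in nucleus and cytoplasm. It had 38.8, 40.7 and 41.0 FPKM in LBH589 samples against 85.7, 83.5 and 90.0 FPKM in DMSO samples. No LBH589 sample came near any DMSO sample, and DHX9 fell by 1.09 on the log2 scale (SE 0.08, adjusted p = 1.59e-04).

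The other 4 cytoplasmic genes were not called, and their groups overlapped. DDX3X, which helps translate mRNA with structured leaders, had 28.6, 38.1 and 58.2 FPKM in LBH589 samples against 31.0, 32.9 and 38.6 FPKM in DMSO samples (log2 fold change 0.22, SE 0.26, adjusted p = 0.513). LBH589 replicate 3 stood above the rest. DHX36, which resolves G-quadruplexes, had 30.6, 45.9 and 25.7 FPKM in LBH589 samples against 28.3, 38.4 and 41.0 FPKM in DMSO samples (log2 fold change -0.10, adjusted p = 0.774). DHX29, a scanning factor of the small ribosomal subunit, had 21.1, 9.71 and 21.0 FPKM in LBH589 samples against 10.7, 12.6 and 15.9 FPKM in DMSO samples. It was called as risen without LBH589 replicate 2 (adjusted p = 0.0399). For DHX34, a factor of nonsense-mediated decay, the log2 fold change was -0.17.

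DDX1, a subunit of the tRNA ligase complex, had 67.9, 67.4 and 62.1 FPKM in LBH589 samples against 89.9, 89.5 and 91.5 FPKM in DMSO samples. The groups did not overlap, and DDX1 fell by 0.45 on the log2 scale (SE 0.08, adjusted p = 0.00534), while its most abundant transcript alone was not called (adjusted p = 0.442). DDX20 (Gemin3), a subunit of the SMN complex that loads Sm proteins onto snRNAs, averaged 1.51 ± 0.385 FPKM in LBH589 samples and 3.80 ± 2.32 FPKM in DMSO samples and was not called (adjusted p = 0.0861). DDX60L and DDX60, both induced by interferon, differed in their values. DDX60L had 1.11, 1.41 and 1.34 FPKM in LBH589 samples against 3.999, 5.13 and 4.86 FPKM in DMSO samples. Its groups were apart, and it fell by 1.31 on the log2 scale (SE 0.14, adjusted p = 6.40e-04), whereas DDX60 had 1.60, 1.44 and 1.47 FPKM in LBH589 samples and 1.63, 1.41 and 1.98 FPKM in DMSO samples (adjusted p = 0.618).

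The mitochondrial helicases DHX30 and DDX28, which assist assembly of the mitochondrial ribosome, were not called. DHX30 had 6.16, 5.18 and 6.21 FPKM in LBH589 samples against 8.63, 6.73 and 5.65 FPKM in DMSO samples, which overlap (log2 fold change -0.21, adjusted p = 0.348). For DDX28 the log2 fold change was -0.45 (adjusted p = 0.157). DDX11, a DNA helicase of sister chromatid cohesion with near copies in the genome, had 3.72, 2.60 and 6.68 FPKM in LBH589 samples against 6.55, 5.12 and 2.36 FPKM in DMSO samples (log2 fold change -0.08, adjusted p = 0.879). The groups overlapped throughout, with SDs of 2.11 FPKM in LBH589 and 2.13 FPKM in DMSO samples. Of 4 less characterised members, DHX57 rose, with 25.9, 36.3 and 32.2 FPKM in LBH589 samples against 21.0, 20.6 and 22.1 FPKM in DMSO samples. The groups did not overlap (log2 fold change 0.53, SE 0.14, adjusted p = 0.0201), but the call was lost without LBH589 replicate 2 (0.0599), LBH589 replicate 3 (0.0671) or DMSO replicate 2 (0.0609). DHX40 had 23.2, 30.6 and 29.8 FPKM in LBH589 samples against 20.2, 13.1 and 23.1 FPKM in DMSO samples (log2 fold change 0.57, adjusted p = 0.0837, and 0.0446 with equal sums). DHX32 (-0.25) and DDX59 (-0.27) were not called.

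Within 6 related pairs, the ratio of one gene to the other in the same library was compared between groups, which removes library scaling nearly entirely. On log2(FPKM + 1), DDX5 over DDX17 was 1.65 ± 0.0923 in LBH589 samples and 0.68 ± 0.155 in DMSO samples, a difference of 0.97. DDX21 over DDX50 was 1.45 ± 0.245 in LBH589 samples and 2.88 ± 0.569 in DMSO samples, a difference of -1.43. DDX60 over DDX60L differed by 1.22, DHX15 over DHX32 by -1.02 and DDX19A over DDX19B by 0.50. In these 5 pairs no LBH589 sample overlapped a DMSO sample, which gives a two-sided exact permutation p of 0.1, the smallest that 3 against 3 samples allow, and 0.12 after Benjamini-Hochberg adjustment over the 6 pairs. DDX39A over DDX39B differed by -0.24, with overlapping groups (exact permutation p = 0.8). With the most abundant transcript of each gene the differences of DDX19A over DDX19B and of DDX39A over DDX39B turned to -1.001 and 1.27, and without DMSO replicate 3 the second was 0.20.

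**Figure D4:**
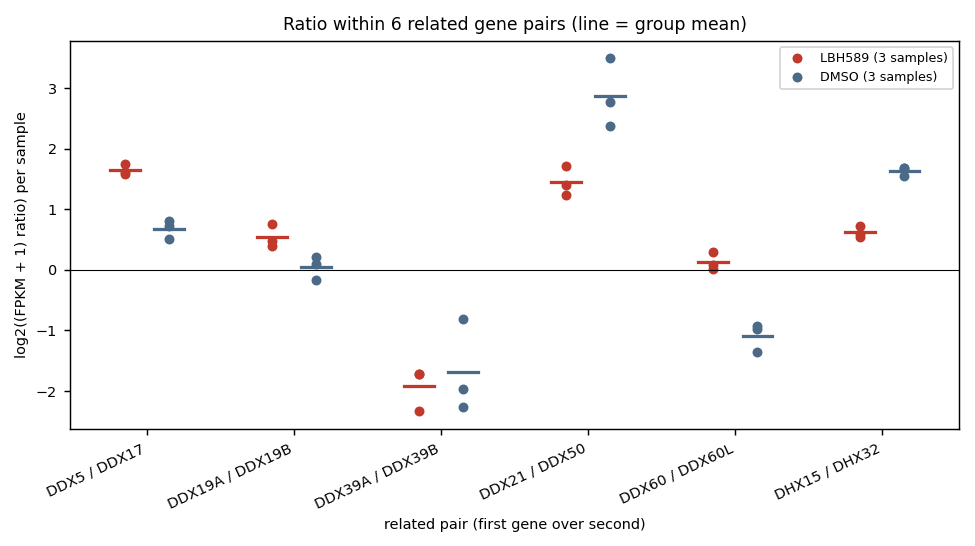
Log2 ratio of FPKM + 1 between the 2 genes of each pair in every sample (y axis), LBH589 left of DMSO, with a line at each group mean. The groups separate in 5 pairs and overlap in DDX39A over DDX39B.

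The listed transcripts showed how far the sums rest on single isoforms. Of 135 transcripts 121 were tested, 4 rose and 12 fell, beside 8.62% rising and 7.33% falling among the 27042 transcripts tested. The 16 called transcripts belonged to 15 genes, 13 of them called in their sum, and 0 genes had called transcripts of opposite direction. Both transcripts of DDX6 fell. The longer DHX16 transcript, ENST00000376442 of 3445 nucleotides, had 21.7, 25.9 and 24.0 FPKM in LBH589 samples against 12.98, 10.9 and 9.99 FPKM in DMSO samples (log2 fold change 1.02, adjusted p = 0.00848). These groups did not overlap, in the same direction as the sum.

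DHX8 and DHX40 had a called transcript although their sums were not called. ENST00000262415 of DHX8, with 5558 nucleotides, had 14.6, 14.7 and 13.5 FPKM in LBH589 samples against 7.62, 8.80 and 7.30 FPKM in DMSO samples and rose by 0.78 on the log2 scale (adjusted p = 0.0152). ENST00000251241 of DHX40, with 3660 nucleotides, had 22.5, 30.1 and 29.4 FPKM in LBH589 samples against 18.6, 12.8 and 11.7 FPKM in DMSO samples and rose by 0.90 (adjusted p = 0.0468). Neither transcript's groups overlapped. The DHX8 call was lost without LBH589 replicate 1 or 2, and the DHX40 call without DMSO replicate 2 or 3, without any 1 LBH589 library and in limma without trend and robust moderation. A further DHX40 transcript was listed at 0 in every LBH589 sample and at 1.21, 0 and 11.1 FPKM in DMSO samples, which raised the DMSO sums. Without LBH589 replicate 1, 1 member transcript rose and 7 fell, and without LBH589 replicate 3, 2 rose. For DDX5 the main transcript, of 2077 nucleotides, had 102, 98.7 and 106 FPKM in LBH589 samples against 114, 104 and 119 FPKM in DMSO samples (log2 fold change -0.13, adjusted p = 0.379). The spread of the DDX5 sum over DMSO samples lay mostly in a transcript of 676 nucleotides, with 60.55, 69.0 and 62.7 FPKM in LBH589 samples and 61.3, 5.002 and 26.0 FPKM in DMSO samples. A DHX36 transcript of 2612 nucleotides was listed at 0, 29.5 and 0.0489 FPKM in LBH589 samples and at 8.05, 22.6 and 25.01 FPKM in DMSO samples. In all, 38 of the 135 transcripts were listed at 0 in at least 1 library, which may be a failed estimate.

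**Figure D5:**
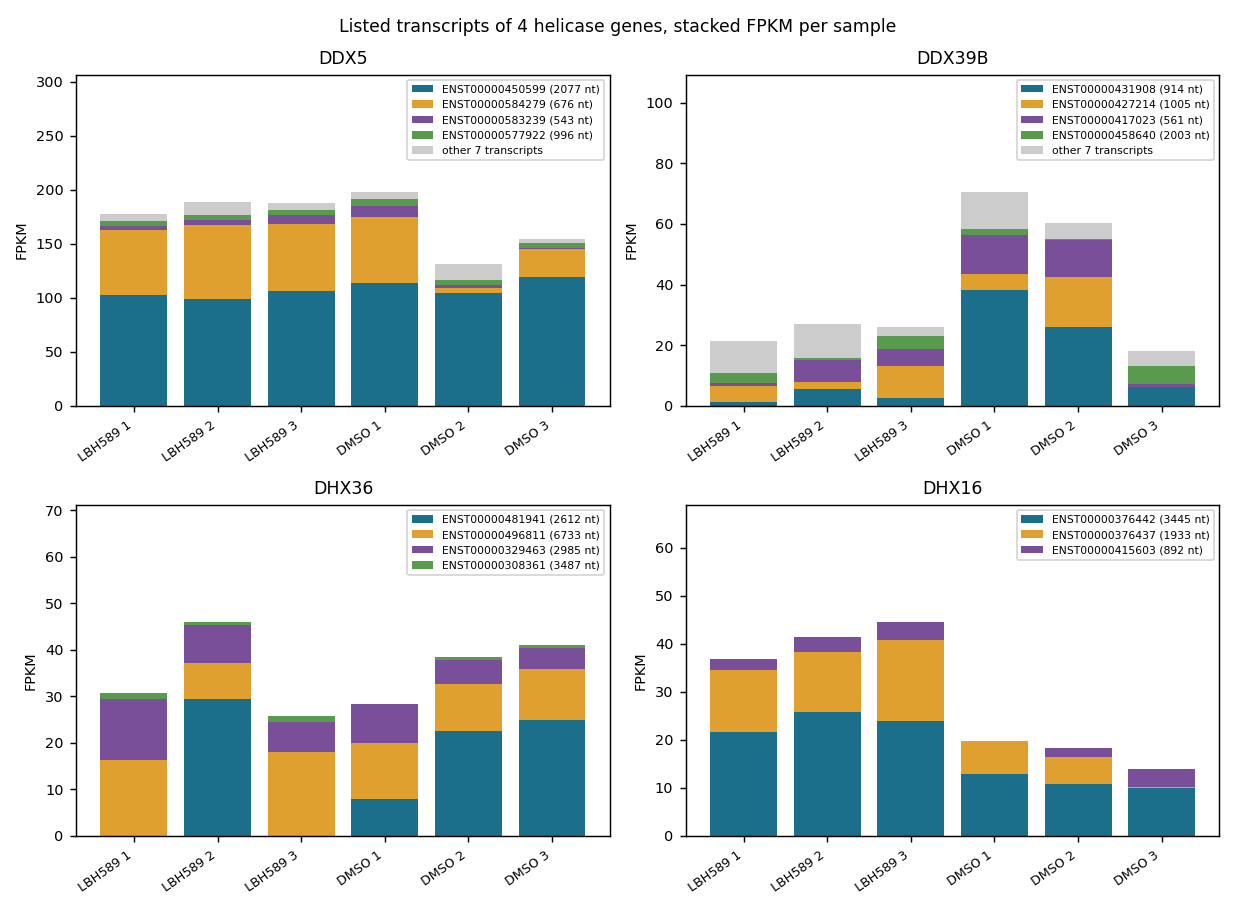
Stacked FPKM of the listed transcripts of DDX5, DDX39B, DHX36 and DHX16 in each sample (y axis, FPKM from 0), with LBH589 samples left of DMSO samples. The 676-nucleotide DDX5 transcript drops to 5.002 FPKM in DMSO replicate 2, and the 914-nucleotide DDX39B transcript is at 6.19 FPKM in DMSO replicate 3, against 38.2 and 26.0 FPKM in DMSO replicates 1 and 2.

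RNA helicases with other symbols were described for comparison, including EIF4A1, EIF4A2 and EIF4A3, which are DEAD box proteins themselves. Of 18 such helicases tested, 7 rose (38.9%) and 1 fell (5.56%), with a median log2 fold change of 0.30. Over all genes tested 27.2% rose and 21.6% fell. The difference between this list and the DDX and DHX genes was not tested. EIF4A3, the clamp of the exon junction complex, had 116, 115 and 119 FPKM in LBH589 samples against 31.7, 23.5 and 28.0 FPKM in DMSO samples. It rose with no overlap between groups (log2 fold change 2.04, SE 0.12, adjusted p = 7.85e-05). EIF4A2, a helicase of translation initiation, had 38.8, 42.8 and 53.9 FPKM in LBH589 samples against 9.84, 7.30 and 9.54 FPKM in DMSO samples (log2 fold change 2.22, SE 0.17, adjusted p = 1.80e-04). Its close relative EIF4A1 had 60.5, 55.9 and 65.9 FPKM in LBH589 samples against 82.7, 31.8 and 39.0 FPKM in DMSO samples and was not called (adjusted p = 0.427). It was called as risen without DMSO replicate 1 (adjusted p = 0.00712) and for its most abundant transcript (4.34e-04). Other rises included AQR, a spliceosomal helicase (log2 fold change 0.81), IFIH1, a sensor of double-stranded RNA (0.62), ASCC3 (0.53) and SNRNP200, the U5 snRNP helicase (0.43). DICER1, the ribonuclease that cuts microRNA precursors, fell by 0.77 (adjusted p = 0.00365). Without LBH589 replicate 2, 3 of these genes rose, with ASCC3, IFIH1 and SNRNP200 among those that lost their calls, and without DMSO replicate 1 or 3, 2 fell. SNRNP200 was also not called without LBH589 replicate 1 or 3, IFIH1 was not called with quantile normalization (adjusted p = 0.0916), and DICER1 was not called for its most abundant transcript (adjusted p = 0.163).

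Among 57 tested cofactors of these helicases, 10 rose (17.5%) and 17 fell (29.8%), against 27.2% rising and 21.6% falling over all genes tested. Their median log2 fold change was -0.09. With equal sums 15 rose and 11 fell, with a median of 0.08. Over all genes 3749 of 11535 rose and 2001 fell under that scaling, with a median of 0.23. The G-patch partners of DHX15, DHX16 and related helicases had 8 rises and 3 falls among 18. The falls came to 1 with equal sums, where RBM10 and RBM17 were not called, and to 1 without DMSO replicate 3, LBH589 replicate 1 or LBH589 replicate 2. The rises came to 6 without DMSO replicate 2 or without any 1 LBH589 library, where GPATCH1 and PINX1 were not called. GPKOW, a partner of DHX16, averaged 16.3 ± 0.582 FPKM in LBH589 samples and 10.3 ± 1.36 FPKM in DMSO samples (log2 fold change 0.61, adjusted p = 0.00657), and rose as DHX16 did. TFIP11, which works with DHX15 in spliceosome disassembly, averaged 14.8 ± 0.179 FPKM in LBH589 samples and 6.81 ± 1.03 FPKM in DMSO samples (1.02, adjusted p = 0.00105). CMTR1, a cap methyltransferase that binds DHX15, rose by 1.08 (adjusted p = 0.00196). GPATCH4, a nucleolar partner of DHX15, averaged 12.4 ± 1.46 FPKM in LBH589 samples and 37.1 ± 4.96 FPKM in DMSO samples and fell by 1.502 (adjusted p = 3.60e-04). So the partners of DHX15 were called in both directions while DHX15 itself fell.

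Partners of the export helicase DDX39B included 2 falls among 8 and 0 rises, against 21.6% falling and 27.2% rising over all genes tested. Whether any of the partner lists differed from all genes was not tested. ALYREF, an adaptor of mRNA export, averaged 11.1 ± 1.45 FPKM in LBH589 samples and 38.8 ± 8.97 FPKM in DMSO samples (log2 fold change -1.70, adjusted p = 6.99e-04), and THOC7, a THO complex subunit, fell by 1.06 (adjusted p = 2.57e-04). Of 8 DDX6 partners in repression and decapping, EDC3 rose (0.72) and DCP1A, LSM14A and PATL1 fell (-0.79, -0.65 and -0.46). Of 4 EIF4A3 partners, MAGOHB, RBM8A and MAGOH fell (-0.81, -0.62 and -0.37) while EIF4A3 rose. Of 6 partners of EIF4A, 4 fell (66.7%), with EIF4B (-1.20), EIF4G1 (-0.88), EIF4G2 (-0.88) and EIF4G3 (-0.35), while EIF4H and PDCD4 were not called. In the tRNA ligase complex RTCB, its ligase, rose by 0.49 on the log2 scale while ZBTB8OS, which encodes the helper protein archease, fell by 1.06 and DDX1 fell by 0.45. GEMIN4, a partner of DDX20, fell by 0.79, and 0 of 3 partners of DDX19A and DDX19B were called. Several of these calls rested on single libraries or on scaling. EIF4G3 was not called without DMSO replicate 2 or 3 or without any 1 LBH589 library, MAGOH and PATL1 without DMSO replicate 2 or 3 or LBH589 replicate 1 or 2, LSM14A without LBH589 replicate 3 and RTCB without LBH589 replicate 1 or 2. With equal sums EIF4G3, MAGOH, PATL1 and LSM14A were not called (adjusted p = 0.235, 0.233, 0.103 and 0.0511), and EIF4G1 was not called for its most abundant transcript (0.149).

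The handling of strand is not given in the sources used here. Antisense genes are annotated at DHX9, DDX59, DDX39B, DDX25 and DDX11, so part of their FPKM could come from the other strand, which was not tested. DDX39A and DDX39B, DDX60 and DDX60L, and DDX11 and its copies also share sequence, and fragments may be split between them.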

How the data were processed

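RNA sequencing was done on total RNA of 92.1 cells, with a TruSeq library kit per the labels' protocols. The deposited values are FPKM per transcript for 30624 transcripts in 6 libraries, per the file headers, each with a mean of at least 0.5 FPKM in 1 group. Bowtie 0.12.2 and the build hg19 are named, with no role, in the submitters' processing notes. For the quantification tool, annotation release and strand setting, the sources used here say nothing.

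Identifiers without version were named through GENCODE 29 (30504 transcripts, 99.6%), which uses a later build, so none of its coordinates were used. FPKM was summed per gene. FPKM removes library size as the authors computed it, so a shift in abundant RNAs moves all other values. The planned count tests did not suit FPKM, so limma 3.58.1 (R 4.3.3, trend and robust options) compared the 2 treatments on log2(FPKM + 1) in genes averaging 0.5 FPKM or more. P-values were adjusted by Benjamini-Hochberg over 11520 genes, or 27042 transcripts, and called below 0.05. Values for a gene's most abundant transcript came from a separate limma fit with 1 transcript per gene, adjusted over 11457 genes. They differ from the fit over all transcripts. The main DDX39A transcript had adjusted p = 0.0355 in the separate fit and 0.0624 over all transcripts. On this scale fold changes of low genes are understated. Pairs were compared by exact permutation (scipy 1.17.1). The fit was tested on simulated data. Promoters came from RefSeq tables.

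Of 87 symbols of the DDX or DHX form in GENCODE 29, 38 had no listed transcript, 5 of them protein-coding, and were not analysed here. Named genes were the 8 largest rises (3 were found) and the 8 largest falls among called genes with groups apart and a higher mean of at least 5 FPKM, and 15 genes whatever their values. Other members are given within their role groups. The helicase genes, role groups and lists were chosen with earlier results of these data known. Alternatives tried were equal medians, quantile normalization, equal sums, a pseudocount of 0.1, a minimum mean of 5 FPKM or none, plain limma, adjusted p below 0.01, the most abundant transcript, a replicate block and leaving out each library. Some genes counted in the lists are not reported here by name. No pair of libraries shared more than 1 equal value.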

Additional observations from a re-analysis of the deposited data

How the results depend on the processing

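The number of helicase genes that fell stayed between 12 and 16 in every alternative, while the number that rose was 8 with equal sums, 5 for the most abundant transcript and 2 to 7 on leaving out a library. Genes risen over all genes numbered 1844 at a mean of at least 5 FPKM, against 3132. Other RNA helicases risen numbered 3 at adjusted p below 0.01 and 3 to 8 on leaving out a library, and those fallen 2 with equal medians or quantile normalization and 1 to 2 on leaving out a library. Cofactors risen numbered 6, and fallen 11, at adjusted p below 0.01, and 11 fell with equal sums. Helicase transcripts risen numbered 1 to 4, and fallen 7 to 11, on leaving out a library. The summed helicase level in LBH589 libraries was 75.9% of DMSO for the most abundant transcript, 94.5% with equal sums and 81.6 to 86.5% on leaving out a library, highest without DMSO replicate 1. The sums, and the gene pairs' alternatives, were added after seeing the data. Pairs reversed for the most abundant transcript were DDX19A over DDX19B (-1.001) and DDX39A over DDX39B (1.27), and the second ranged from -0.53 to 0.20 on leaving out a library. Uncalled genes also changed sign. DDX3X ranged from -0.043 to 0.46, DDX19A from -0.17 to 0.27, DDX11 from -0.42 to 0.16 and DHX36 from -0.33 to 0.079 on leaving out a library. For the most abundant transcript DDX5 was -0.13 and DDX19A -1.07, and with equal sums, with or without the replicate block, DDX11 was 0.060 and DHX36 0.078. Apart from equal sums and the leave-outs, whose construction sets them, the cause was not tested. Depth limits are unknown without counts.

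Deviations of same-numbered samples from their group means correlated at -0.10, 0.02 and -0.04 for replicates 1 to 3. Deviations within a group are bound to cancel, which ties these correlations together. The check therefore cannot decide whether the numbers pair the samples. With the replicate block 3 helicase genes rose and 15 fell, and over all genes 2617 rose and 2172 fell. With the block and equal sums 3 helicase genes rose and 12 fell, and DHX38, DHX8, DDX50, DDX10 and DHX40, which rose with equal sums alone, were not called. The block also ended the calls of DDX41, IFIH1, EIF4G3, PINX1, GPATCH1, RBM10 and the named DHX16, DHX8 and DHX40 transcripts. Among the helicase genes that fell, DDX1, DDX41, DDX52 (adjusted p = 0.0683) and DDX55 lost their calls with the block and equal sums. Helicase transcripts risen numbered 0, and fallen 3, with the block and with the block and equal sums.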
